A study of Mus musculus with 6 samples.

Results

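The core circadian clock loop comprises the 10 genes *Bmal1* (*Arntl*), *Npas2*, *Clock*, *Per1*, *Per2*, *Per3*, *Cry1*, *Cry2*, *Nr1d1* and *Nr1d2*. They were taken by name from the deposited table of normalized counts, in which all 10 were found among 16381 listed genes. The table compares activated group 2 innate lymphoid cells (aILC2s), the tissue-resident lymphocytes that release IL-5 and IL-13 in type 2 inflammation, cultured with melatonin or with its vehicle DMSO. The cells came from lungs of wild type BALB/cJ mice, aged 6 to 8 weeks and stated to be female. This strain is described as deficient in endogenous melatonin. Both groups shared the intranasal IL-33 challenge, at 0.5 µg per day for 3 days, and the sort for live CD45+, lineage-negative, ST2+, CD127+ cells to a stated purity above 95%. Cells were then held for 24 h with 250 µM melatonin, a pharmacological dose, or with an equal volume of DMSO, and each group held 3 bulk RNA samples. No label says whether the replicates came from separate animals or cultures, so the p-values measure only the spread between these samples. A single time was sampled, so a shift in the phase of a rhythm and a change in its level cannot be told apart. In bulk RNA, fewer cells of a type and less RNA per cell cannot be told apart either.

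The mammalian clock is a transcription feedback loop that runs in nearly every cell, lymphocytes included. BMAL1 pairs with CLOCK or with its relative NPAS2, binds E-box elements and activates the *Per* and *Cry* genes, whose proteins return to the nucleus and repress that activation. The same activator drives *Nr1d1* and *Nr1d2*, which encode the nuclear receptors REV-ERBα and REV-ERBβ, and these repress *Bmal1* and *Npas2* through elements that they share with the activating ROR receptors.

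Estimated reads per library ran from 17056267 to 20511700, and this depth sets the precision of the *Per* genes in particular, which had between 3 and 81 reads in a library. All 12 ILC2 markers were listed, with a summed level of 190700 to 203500 normalized counts in DMSO and 128000 to 145700 with melatonin. The most abundant markers, *Il5* and *Il2ra*, had lower means with melatonin, while *Il1rl1* and *Rora* had higher ones. Markers of other cell types were listed too. The 3 of 7 T cell markers listed (*Cd3e*, *Cd3d* and *Cd3g*, without *Cd4*, *Cd8a*, *Cd8b1* and *Cd5*) summed to 1203 to 1336 in DMSO and 458 to 868 with melatonin. The 7 myeloid markers, all listed, summed to 1452 to 1652 and 364 to 845, and the 4 NK cell and ILC1 markers to 165 to 201 and 7.65 to 9.34, with *Klrb1c* at 0 in each melatonin library. The 2 of 4 B cell markers listed summed to 289 to 322 and 131 to 162, and the 4 epithelial markers to 877 to 2173 and 1022 to 1236. Within that sum *Epcam* had a higher mean with melatonin, 1097 against 667, while *Scgb1a1*, *Sftpc* and *Krt8* lay between 0 and 6.54 in each melatonin library. In DMSO replicates 1, 2 and 3 *Scgb1a1* was at 95.2, 21.5 and 1045, *Sftpc* at 155, 122 and 389 and *Krt8* at 4.67, 8.35 and 105, so DMSO replicate 3 stood apart in these markers. Of 3 markers each, 2 were listed for neutrophils, for mast cells and basophils and for red cells and 1 for eosinophils, each summing to at most 70.0 in a library, and of 4 endothelial and stromal markers only *Pecam1* was listed, at 1001 to 1066 and 310 to 416. Transcripts of Y-linked genes summed to 3320 to 3588 in melatonin replicate 1 and the 3 DMSO samples and to 247 and 259 in melatonin replicates 2 and 3, where *Xist* was at 579 and 1091 and elsewhere at 13.6 or less. The higher level of Y-linked transcripts goes against the stated female sex in these 4 of 6 libraries. Only melatonin replicate 1 shared the Y-linked level of the DMSO samples, so the animals' sex and the treatment cannot be fully told apart. The part of these markers or of the animals' sex in the results below was not tested. Library names number the 2 groups in separate stretches, and all DMSO names carry a suffix that no melatonin name has. No label says what the numbers or the suffix stand for. A difference in handling behind them and the treatment cannot be told apart.

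To describe the loop as a whole, each gene was compared between the groups with limma on log2(normalized count + 1), with p-values adjusted over the 14419 genes tested and called under 0.05. All 10 members were tested. Melatonin-treated aILC2s had higher *Bmal1*, *Npas2*, *Cry2* and *Nr1d2*, and lower *Per1*, *Per2*, *Per3* and *Cry1*, while *Clock* and *Nr1d1* were not called. The 4 members called higher stand against 24.5% of all tested genes called higher, and the 4 called lower against 24.7%. With both directions counted, 80% of the members and 49.2% of all tested genes were called. In 4 members every melatonin value lay above every DMSO value, which held for 30.0% of tested genes, and in 5 members every melatonin value lay below, which held for 30.3%. The median log2 fold change of the members was 0.03, against −0.00 over all tested genes. For a single gene, the smallest two-sided p of an exact permutation test between groups of 3 is 0.1. The calls therefore rest on the model of limma, which shares variance across genes.

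**Figure D1:**
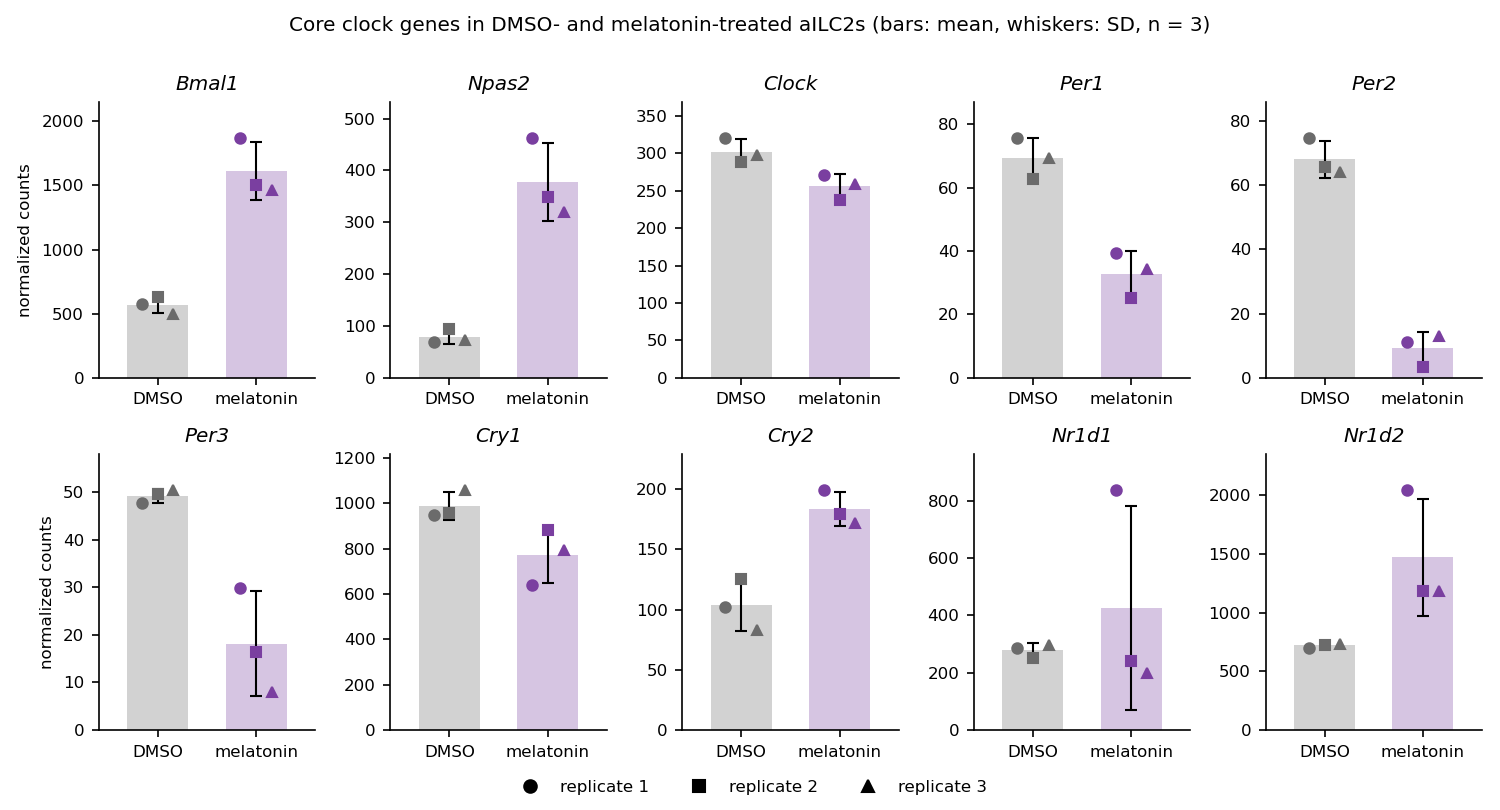
Normalized counts of the 10 core clock genes on linear axes that start at 0, by treatment, with 1 point per library (the shape gives the replicate number), bars for the mean and whiskers for the SD of 3 samples. The groups overlap only in *Nr1d1*, where melatonin replicate 1 lies at 836 and replicates 2 and 3 at 241 and 199.

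The activators were described first. *Bmal1*, which encodes the obligate partner of the activator pair, lies on chromosome 7 of GRCm39 from 112806152 to 112914735. Its normalized counts were 577, 632 and 500 in DMSO replicates 1, 2 and 3 and 1869, 1503 and 1461 in melatonin replicates 1, 2 and 3. All melatonin libraries lay far above all DMSO libraries, and melatonin replicate 1 was the highest. The mean rose from 570 ± 66.3 to 1611 ± 224 (SD, n = 3 each), a log2 fold change of 1.50 with a standard error of 0.13 and a 95% interval from 1.21 to 1.78 (limma, adjusted p = 7.1e-05). It ranked 457 of 14419 genes by the size of its rise.

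The promoter of *Bmal1* is shown because REV-ERB and ROR receptors are known to act on it, and because its transcript rose while one REV-ERB transcript rose and the other was not called. Windows of 300 bases, 250 before and 50 from the annotated start, were read from RefSeq on build GRCm38.p6, which held 13 windows for 9 of the 10 members, with no window for *Per2*. Capitals mark matches, and positions count from the first transcribed base as +1. In the window at chr7:113207261-113207560 on the plus strand, the REV-ERB and ROR element TAGGTCA begins at +31 and holds the shorter form AGGTCA.
*Bmal1*: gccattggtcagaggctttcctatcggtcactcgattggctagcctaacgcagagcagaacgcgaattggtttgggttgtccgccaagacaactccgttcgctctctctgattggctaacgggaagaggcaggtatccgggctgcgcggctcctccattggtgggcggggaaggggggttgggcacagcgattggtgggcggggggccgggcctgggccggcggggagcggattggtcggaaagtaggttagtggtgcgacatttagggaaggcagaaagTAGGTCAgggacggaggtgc
TAGGTCA is found on either strand in 2.61% of 32851 promoter windows of this length, and AGGTCA in 16.3%. Among the members' windows, AGGTCA or its reverse complement TGACCT is also found in one window each of *Clock*, *Per1* and *Nr1d2*.

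*Npas2* encodes a second partner of BMAL1, best known from the forebrain, and had the largest rise among the 10 members. It lies on chromosome 1 from 39232705 to 39402323. It was at 70.0, 94.6 and 72.4 normalized counts in DMSO and at 462, 350 and 320 with melatonin. The lowest melatonin library was more than 3 times as high as the highest DMSO library. The mean rose from 79.0 ± 13.6 to 377 ± 75.2, a log2 fold change of 2.24 with a standard error of 0.19 and an interval from 1.80 to 2.67 (limma, adjusted p = 7.3e-05), which ranked 135 of 14419 by rise. *Npas2* shares 12.7% of its exon bases with the long noncoding RNA gene *Gm53549* on the opposite strand. *Gm53549* was not among the listed genes, and the library kit does not mark strand.

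*Clock*, the usual partner of BMAL1, did not follow. It lies on chromosome 5 from 76342860 to 76452846 on the minus strand. Its values were 320, 289 and 298 in DMSO and 271, 238 and 259 with melatonin. Every melatonin value lay below every DMSO value, by a small margin. The log2 fold change was −0.24 with an interval from −0.51 to 0.03 (limma, adjusted p = 0.123), and no alternative setting called it. On estimated reads, before scaling for depth, the groups overlapped. *Clock* shares 11.9% of its exon bases with *Tmem165* on the opposite strand.

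Because both proteins compete for BMAL1, the ratio of *Npas2* to *Clock* was taken within each library, where depth cancels. In DMSO the ratio of normalized counts was 0.219, 0.328 and 0.243. With melatonin it was 1.71, 1.47 and 1.23. In every DMSO library the *Npas2* value was thus below that of *Clock*, and in every melatonin library above it, as counts that are not corrected for transcript length. On the log2 scale the mean ratio went from −1.93 ± 0.30 to 0.54 ± 0.23. This ratio, like the other ratios between members, is given as a description with no test.

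The period genes encode the repressors whose abundance sets the timing of the loop, and all 3 fell. *Per1* lies on chromosome 11 from 68986035 to 69002300. It was at 75.6, 62.8 and 69.2 normalized counts in DMSO and at 39.2, 25.1 and 34.2 with melatonin. The groups did not overlap, and melatonin replicate 2 was lowest. The log2 fold change was −1.07 with a standard error of 0.25 and an interval from −1.63 to −0.51 (limma, adjusted p = 0.00714).

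*Per2*, the period gene whose loss most disturbs rhythms in mice, fell furthest of the 10 members. It lies on chromosome 1 from 91343700 to 91387069 on the minus strand. Its normalized counts were 74.7, 65.6 and 64.0 in DMSO and 11.2, 3.28 and 13.1 with melatonin. These came from 80, 70 and 61 estimated reads in DMSO and 12, 3 and 13 with melatonin. Melatonin replicate 2 thus lay at 3 reads, the count taken as the floor, and all melatonin libraries lay far below all DMSO libraries. The group means were 68.1 ± 5.76 and 9.18 ± 5.20, and the log2 fold change was −2.93 with a standard error of 0.45 and an interval from −3.96 to −1.90 (limma, adjusted p = 0.00103). It ranked 228 of 14419 by the size of its fall. At this low level the size of the change depends on the pseudocount, and it was −3.10 with 0.1 and −2.06 with 10 added in place of 1.

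*Per3*, the period gene least needed for rhythmicity, lies on chromosome 4 from 151081373 to 151129140 on the minus strand. It was at 47.6, 49.7 and 50.4 normalized counts in DMSO and at 29.9, 16.4 and 8.04 with melatonin. The DMSO samples were nearly equal, while the melatonin samples were spread widely below them, with replicate 1 nearest to DMSO. The log2 fold change was −1.57 with a standard error of 0.43 and an interval from −2.54 to −0.60 (limma, adjusted p = 0.0149). With only the 4 libraries at the higher level of Y-linked transcripts, the DMSO samples and melatonin replicate 1, it was −0.70. That fit has 1 melatonin sample, which is assumed to vary like the others.

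Together the period genes summed to 198, 178 and 184 normalized counts in DMSO and to 80.3, 44.8 and 55.3 with melatonin. The mix shifted as well. The ratio of *Per2* to *Per1* was 0.988, 1.05 and 0.924 in DMSO, near parity, and 0.286, 0.130 and 0.382 with melatonin, a log2 difference of −1.86 that became −1.17 with a pseudocount of 10. The ratio of *Per3* to *Per1* overlapped between the groups, at 0.630 to 0.791 in DMSO and 0.235 to 0.762 with melatonin.

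The promoters of *Per1* and *Per3* are shown because E-boxes, bound by BMAL1 and its partners, and D-boxes, bound by the output factors DBP, TEF, HLF and NFIL3, are the known clock elements of period genes. In the *Per1* window at chr11:69098699-69098998 on the plus strand, capitals mark an E-box CACGTG at −166, the REV-ERB and ROR element as TGACCT at −137, and the core of the NRF2 element, TGACNNNGC, at −215 and −148. In the *Per3* window at chr4:151044616-151044915 on the minus strand, they mark the D-box TTATGTAA at −205 and again at −158.
*Per1*: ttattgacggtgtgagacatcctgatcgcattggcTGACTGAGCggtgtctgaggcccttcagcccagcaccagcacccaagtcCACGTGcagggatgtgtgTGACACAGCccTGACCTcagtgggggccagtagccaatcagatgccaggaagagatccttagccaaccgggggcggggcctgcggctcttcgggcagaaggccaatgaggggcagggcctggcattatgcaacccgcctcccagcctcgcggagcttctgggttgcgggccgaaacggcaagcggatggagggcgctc
*Per3*: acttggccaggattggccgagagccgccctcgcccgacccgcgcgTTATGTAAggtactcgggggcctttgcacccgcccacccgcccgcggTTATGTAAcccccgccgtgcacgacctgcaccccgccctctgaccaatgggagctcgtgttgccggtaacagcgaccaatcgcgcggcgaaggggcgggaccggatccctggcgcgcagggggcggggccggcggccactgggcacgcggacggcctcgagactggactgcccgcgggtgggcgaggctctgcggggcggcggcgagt
CACGTG is found in 7.15% of all windows, TTATGTAA in 0.938% and TGACNNNGC in 12.4%. The other D-box searched, TTACGTAA, is found in 0.119% of windows and the cyclic AMP element TGACGTCA in 1.79%, and neither is in a member's window. The second E-box form searched, CACGTT or its reverse complement AACGTG, is found in 4.68% of windows and in those of *Cry1*, *Cry2* and *Nr1d1*. CACGTG is also in the *Cry1* window, and TGACNNNGC in those of *Cry1*, *Cry2* and *Nr1d2*. Of the 13 member windows 5 hold no match, among them the *Npas2* window and the second window of *Per1*. A match describes these letters only.

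The cryptochrome genes, whose proteins are the strongest direct repressors of the activator pair, moved in opposite directions. *Cry1* lies on chromosome 10 from 84967560 to 85021252 on the minus strand. It was at 948, 959 and 1058 normalized counts in DMSO and at 642, 883 and 794 with melatonin. The groups did not overlap, but melatonin replicate 2 came close to the DMSO samples. The log2 fold change of −0.36 had an interval from −0.65 to −0.08 (limma, adjusted p = 0.0372). The call was kept in 9 of 18 alternatives and in 1 of 6 fits that left out a sample, where the log2 fold change ran from −0.47 to −0.24 and the adjusted p reached 0.123 without DMSO replicate 3. Melatonin replicate 1 alone against the DMSO samples gave −0.62.

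*Cry2* lies on chromosome 2 from 92233894 to 92264474 on the minus strand. Its values were 102, 126 and 82.9 in DMSO and 199, 179 and 172 with melatonin. All melatonin samples were above all DMSO samples, and *Cry2* was the only member with a wider range of log2 values among the DMSO samples than among the melatonin samples. The mean rose from 103 ± 21.4 to 183 ± 14.0, a log2 fold change of 0.84 with a standard error of 0.19 and an interval from 0.42 to 1.26 (limma, adjusted p = 0.00592). Within libraries the ratio of *Cry1* to *Cry2* was 9.32, 7.63 and 12.8 in DMSO and 3.23, 4.93 and 4.62 with melatonin. The groups did not overlap in this ratio, and *Cry1* kept the larger count of the pair in each library.

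**Figure D2:**
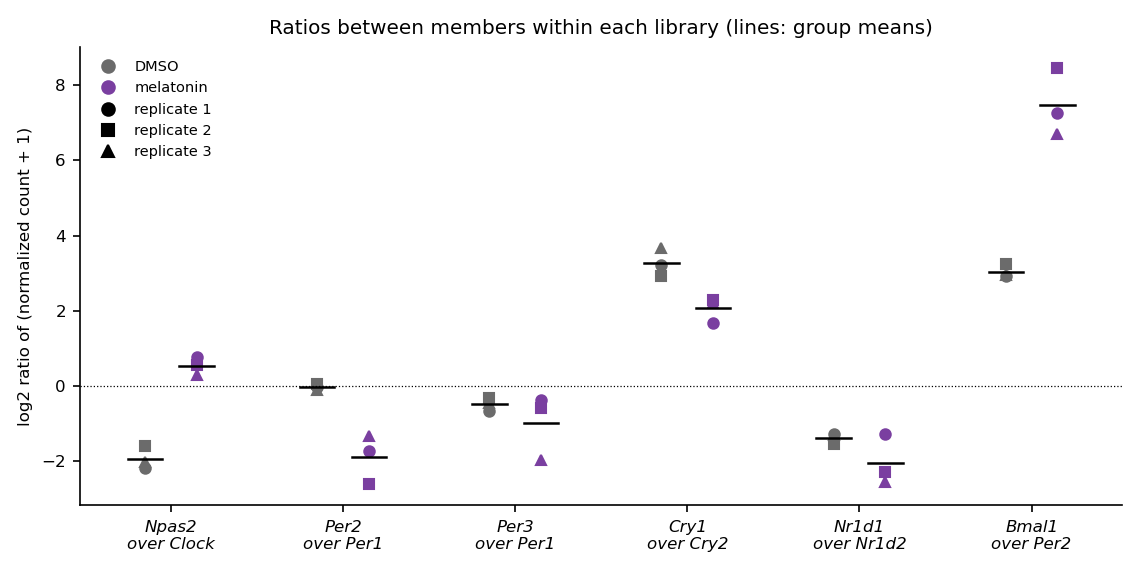
Log2 ratio of (normalized count + 1) between pairs of core clock genes within each library, with 1 point per library (grey for DMSO, purple for melatonin, the shape for the replicate number) and a line for each group mean. *Npas2* over *Clock* crosses 0 from −1.93 to 0.54, *Bmal1* over *Per2* moves from 3.04 to 7.47, and *Per3* over *Per1* and *Nr1d1* over *Nr1d2* overlap between the groups.

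The REV-ERB genes differed from each other in how the melatonin samples spread. *Nr1d2*, which encodes REV-ERBβ, lies on chromosome 14 from 4230545 to 4266624. It was at 700, 728 and 737 normalized counts in DMSO and at 2043, 1189 and 1182 with melatonin. The DMSO samples were nearly equal, melatonin replicates 2 and 3 were nearly equal at a higher level, and melatonin replicate 1 was higher again. The mean rose from 722 ± 19.1 to 1471 ± 495, a log2 fold change of 0.98 with a standard error of 0.19 and an interval from 0.54 to 1.41 (limma, adjusted p = 0.00329). Without melatonin replicate 1 the log2 fold change was 0.72 and the call was kept, while melatonin replicate 1 alone against the DMSO samples gave 1.50. The *Nr1d2* window, at chr14:18239057-18239356 on the minus strand of GRCm38.p6, is shown as that of the called REV-ERB gene. It has the REV-ERB and ROR element AGGTCA at −77 and the NRF2 core, here on the opposite strand, at +38.
*Nr1d2*: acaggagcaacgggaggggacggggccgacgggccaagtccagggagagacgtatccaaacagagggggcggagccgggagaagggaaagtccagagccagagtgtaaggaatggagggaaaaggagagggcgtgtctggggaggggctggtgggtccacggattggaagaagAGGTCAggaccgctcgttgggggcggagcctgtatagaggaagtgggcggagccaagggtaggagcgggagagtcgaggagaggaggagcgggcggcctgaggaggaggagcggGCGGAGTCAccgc

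*Nr1d1*, which encodes REV-ERBα, lies on chromosome 11 from 98658752 to 98666188 on the minus strand. It was at 286, 250 and 297 normalized counts in DMSO and at 836, 241 and 199 with melatonin. Melatonin replicate 1 stood far above all other libraries, while replicate 2 lay just below the DMSO samples and replicate 3 further below. The mean of 426 ± 356 with melatonin against 278 ± 24.5 in DMSO therefore describes none of the melatonin libraries. The log2 fold change was 0.31 with an interval from −0.71 to 1.32 (limma, adjusted p = 0.595). Its direction rested on melatonin replicate 1, since without that library it was −0.34 (adjusted p = 0.0792). That library alone against the DMSO samples gave 1.59, a value of 1 library.

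Of the members, *Nr1d1* also has the largest share of its exon bases in common with another gene. It shares 1694 of its 3242 exon bases, 52.3%, with *Thra*, a thyroid hormone receptor gene on the opposite strand. Its estimated reads were whole numbers in 1 of 6 libraries, against all 6 libraries in each of the other 9 members, *Clock* with its own overlap included. The part of the overlap in these fractions was not tested. *Thra* was at 70.2, 66.8 and 62.2 in DMSO and at 63.9, 18.8 and 42.2 with melatonin. The sum of both genes was 357, 317 and 359 in DMSO and 900, 260 and 241 with melatonin. Because *Thra* was at 70.2 or less in each library, this sum largely follows *Nr1d1* and cannot test the overlap. The ratio of *Nr1d1* to *Nr1d2* was 0.409, 0.343 and 0.403 in DMSO, 0.409 in melatonin replicate 1, and 0.203 and 0.168 in melatonin replicates 2 and 3.

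**Figure D3:**
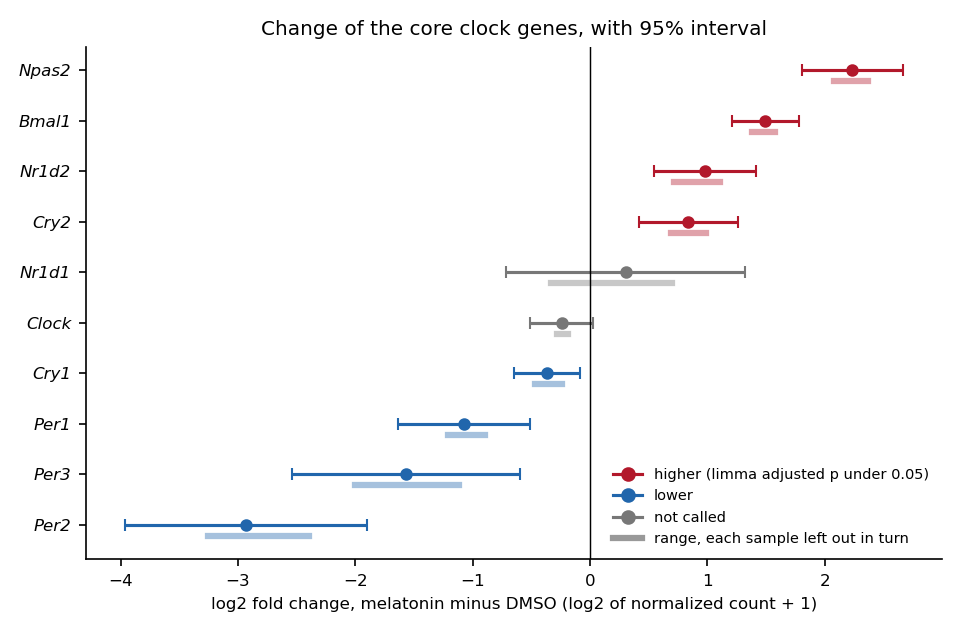
Log2 fold change of each core clock gene, melatonin minus DMSO, on the log2(normalized count + 1) scale, as a point with its 95% interval from limma over 3 samples per group, coloured by call. The pale bar under each point is the range when each sample is left out in turn, and it crosses 0 only for *Nr1d1*, from −0.34 to 0.70.

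Levels can be compared between genes only per length, so normalized counts were divided by the length in kb of each gene's canonical transcript. In DMSO, *Cry1* was highest at 324 ± 19.8 per kb, followed by *Bmal1* at 134 ± 15.5, *Nr1d2* at 127 ± 3.37 and *Nr1d1* at 102 ± 9.02. Much lower came *Clock* at 30.5 ± 1.64, *Cry2* at 24.99 ± 5.17 and *Npas2* at 18.4 ± 3.16. The period genes were lowest, *Per2* at 11.7 ± 0.987, *Per1* at 10.3 ± 0.959 and *Per3* at 8.18 ± 0.238. The samples of *Bmal1* and *Nr1d2* overlapped, as did those of *Clock* and *Cry2*, of *Cry2* and *Npas2*, and of *Per2* and *Per1*, and the other neighbours in this order did not.

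With melatonin the order per kb changed at the top, in the middle and at the bottom. *Bmal1* was highest at 378 ± 52.6 per kb, then *Nr1d2* at 260 ± 87.4, *Cry1* at 254 ± 40.1, *Nr1d1* at 156 ± 131 and *Npas2* at 87.7 ± 17.5. The first 4 each overlapped with the next in order, and *Npas2* did not overlap with *Cry2*. *Cry2* at 44.3 ± 3.38 and *Clock* at 25.8 ± 1.67 overlapped with no neighbour. *Per1* at 4.91 ± 1.07 overlapped with *Per3* at 3.01 ± 1.83, and *Per3* with *Per2* at 1.57 ± 0.891. *Npas2* moved from below *Clock* and *Cry2* to above both, and *Per2* from the head of the period genes to the last place. The ratio of *Bmal1* to *Per2*, in normalized counts, was 7.73, 9.64 and 7.82 in DMSO and 167, 459 and 112 with melatonin.

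**Figure D4:**
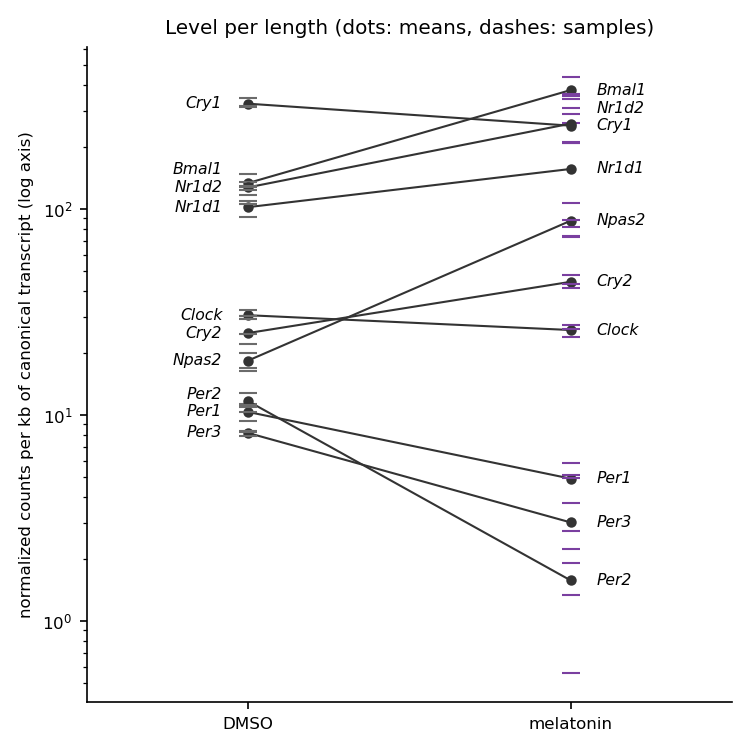
Level of each core clock gene as normalized counts per kb of canonical transcript, on a log axis, in DMSO (left) and melatonin (right), with dots for means of 3 samples, dashes for single samples and lines that join a gene's means. *Bmal1* rises from 134 to 378 past *Cry1*, *Npas2* passes *Clock* and *Cry2*, and the period genes lie at the bottom in both groups, with *Per2* falling from 11.7 to 1.57.

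The melatonin libraries differed among themselves more than the DMSO libraries. The range of the log2 values was wider with melatonin in 9 of 10 members, against 69.1% of all tested genes. Melatonin replicate 1 was the highest melatonin library for 8 of the 10 members, all but *Per2* and *Cry1*. The share of all tested genes that were highest in this library was not counted. Melatonin replicate 1 exceeded the mean of replicates 2 and 3 by 1.93 on the log2 scale in *Nr1d1*, by 1.30 in *Per3* and by 0.78 in *Nr1d2*. The gap was smaller in *Bmal1*, at 0.33, and *Npas2*, at 0.47. A gap of 1 or more upward was found in 549 tested genes, 3.81% of them, and one of the same size downward in 727, 5.04%. *Dbp*, an output gene driven by E-boxes and chosen here after its values were seen, had a like pattern to *Nr1d1*. It was at 78.9, 80.7 and 70.5 normalized counts in DMSO and at 155, 27.2 and 43.3 with melatonin, so that melatonin replicate 1 lay above DMSO and the other two below. Not all output genes shared this pattern. Melatonin replicate 1 minus the mean of replicates 2 and 3 was 0.60 in *Tef*, 0.18 in *Hlf* and 0.28 in *Bhlhe40*, but −0.86 in *Nfil3* and −0.47 in *Ciart*. Melatonin replicate 1 is also the melatonin library with Y-linked transcripts at the level of the DMSO samples, and the part of this in its clock values was not tested.

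**Figure D5:**
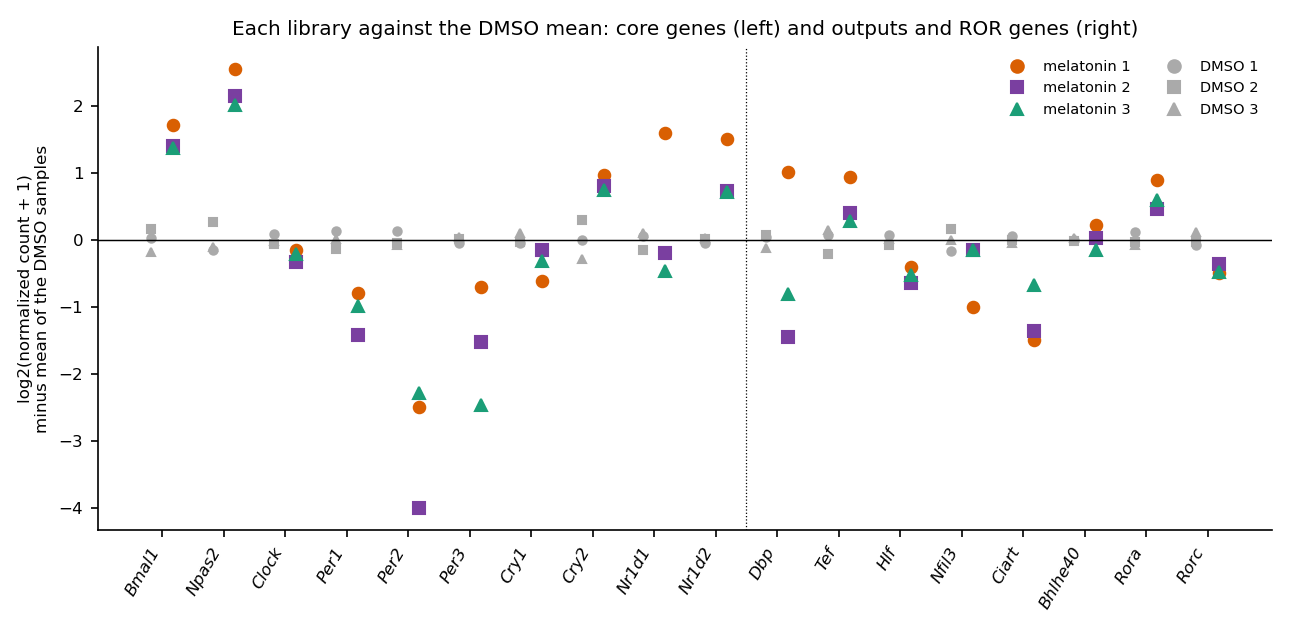
Log2(normalized count + 1) of each library minus the mean of the DMSO libraries, for the 10 core clock genes (left of the dotted line) and for output and ROR genes (right), with DMSO libraries in grey and melatonin replicates 1, 2 and 3 as orange circles, purple squares and green triangles. Melatonin replicate 1 lies apart from the other melatonin replicates in *Nr1d1* at 1.59 against −0.20 and −0.47, and in *Dbp* at 1.01 against −1.46 and −0.81.

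To place the loop in its wider pathway, 41 other clock genes were taken by role. All 41 were listed and 40 were tested, of which 9 were higher, 11 lower and 20 not called, so 50% were called against 49.2% of all tested genes. Their median log2 fold change was −0.19. Among the 7 output and repressor genes next to the loop, 6 were tested, 1 was higher and 2 lower. *Tef*, which activates D-boxes, went from 413, 338 and 431 to 755, 517 and 476 normalized counts, a log2 fold change of 0.54 (limma, adjusted p = 0.0340) that was called in 11 of 18 alternatives and in 2 of 6 fits that left out a sample. Without melatonin replicate 1 it was 0.34 and not called (limma, adjusted p = 0.0567). *Ciart*, a repressor of the activator pair, had a log2 fold change of −1.18 (limma, adjusted p = 0.00521), and *Hlf*, a further D-box factor, of −0.53 (limma, adjusted p = 0.00130).

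Of the 3 ROR genes, whose products oppose the REV-ERBs at *Bmal1*, *Rora* was higher. It was at 4546, 4120 and 4000 normalized counts in DMSO and at 7796, 5760 and 6362 with melatonin, with no overlap, for a log2 fold change of 0.64 with a standard error of 0.11 (limma, adjusted p = 0.00205). *Rora* is also a lineage factor of ILC2s and one of the 12 ILC2 markers. The second BMAL gene, *Bmal2*, was not called.

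Genes whose proteins modify or degrade PER, CRY and REV-ERB proteins were called in both directions. Of 10 kinase genes, 2 were higher, 4 lower and 4 not called, so 60% were called against 49.2% of all tested genes. *Csnk1d*, a casein kinase that marks PER for degradation, had a log2 fold change of 0.47 (limma, adjusted p = 0.00212), while the casein kinase 2 subunit genes *Csnk2a2*, *Csnk2b* and *Csnk2a1* had −1.16, −0.99 and −0.75. *Prkaa2*, an AMP-activated kinase subunit at no more than 5.25 normalized counts in DMSO, had 2.02 and kept its call in 11 of 17 alternatives and in 2 of 6 fits that left out a sample. Its value was 0.84 with a pseudocount of 10. Of 6 ubiquitin ligase and deubiquitinase genes, 4 were higher, against 24.5% of all tested genes, 1 was lower, against 24.7%, and 1 was not called. *Fbxl21*, whose protein can stabilise cryptochromes, was at 5.60, 9.37 and 3.15 in DMSO and at 142, 50.3 and 43.2 with melatonin, a log2 fold change of 3.39 (limma, adjusted p = 0.00103) that was 2.31 with a pseudocount of 10. DMSO replicate 3 lay at the floor of 3 reads. The groups did not overlap, and melatonin replicate 1 was the highest. *Fbxw7*, which acts on REV-ERBα, had 0.99 and *Fbxw11* 0.36, the latter called in 16 of 18 alternatives.

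Of the 7 corepressor genes none was higher and 2 were lower, among them *Sfpq*, a part of PER complexes, at −0.47. These 2 make 28.6% of the corepressor genes, near the 24.7% of all tested genes called lower. Of all tested genes, 24.5% were called higher. The call of *Sfpq* was kept in 15 of 18 alternatives. Of 5 coactivator and chromatin partner genes, 1 was higher, 1 lower and 3 not called, so 40% were called against 49.2% of all tested genes. *Sirt1*, a deacetylase tied to the clock through NAD, had a log2 fold change of 0.72 and *Kmt2a*, a histone methyltransferase that works with CLOCK, of −0.55. Of the 2 PER and CRY partners, *Timeless* was lower at −0.46 and the other was not called, and 24.7% of all tested genes were called lower.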

How the data were processed

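Bulk RNA of 3 melatonin-treated and 3 DMSO-treated aILC2 samples was sequenced. The authors made cDNA with a low-input kit that does not mark strand, trimmed reads (Phred at least 35, length at least 25 bp), aligned them with STAR to mm39, and counted them per Gencode gene with the Partek E/M algorithm, which can divide a read among genes. The authors dropped genes under 10 counts and divided the rest by size factors of the median ratio method. The deposited values, a signal, are these normalized counts. They are not raw counts. Dividing by the value of 1 read, found from the spacing of low values, gave estimated reads, of which 65.1% to 67.5% were whole within 0.01, so whole reads were not recovered and no count test was used.

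The members and gene lists were chosen with earlier results of these data known. limma 3.58.1 in R 4.3.3 (lmFit, eBayes with trend) was fitted to log2(value + 1) for genes with at least 10 in at least 1 sample, treatment being the only term, with Benjamini-Hochberg adjustment and a threshold of 0.05. This scale understates changes of low genes. The script was tested on simulated data. All 10 members are named, and of the other clock genes up to 3 called genes per role and direction, apart from withheld genes, whose single values are not reported here. Positions and lengths came from GRCm39, by identifier, for 16334 of 16381 genes. Tables used pandas 2.3.3 and numpy 2.4.6, and figures matplotlib 3.10.9. Alternatives were pseudocounts, filters, scalings, limma without trend or with sample weights, voom on estimated counts, a block for the replicate number, fits that leave out a sample, and stricter thresholds. The fit on the 4 libraries at the higher level of Y-linked transcripts was added after the data were seen.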

Additional observations from a re-analysis of the deposited data

How the results depend on the processing

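Under the other fits at the same threshold, *Bmal1*, *Npas2*, *Per1*, *Per2*, *Cry2* and *Nr1d2* kept direction and call wherever they were tested. *Per3* lost its call in 1 of 17 such fits, and *Cry1* in 9 of 18. The fit without the *Per3* call, at −0.70, used the 4 libraries at the higher level of Y-linked transcripts. With those 4 libraries, of which 1 is a melatonin sample assumed to vary like the others, *Nr1d1* was at 1.59. This value restates melatonin replicate 1 alone. *Nr1d1* reversed to −0.032 with sample weights, and with each sample left out it ran from −0.34, without melatonin replicate 1, to 0.70, and the cause was not tested. Members called higher stayed at 4 with each sample left out, and members called lower ran from 3 to 4. At a mean of at least 100, 1 member was called lower, since *Per1*, *Per2* and *Per3* were not tested there. At an adjusted p under 0.01, 2 members were called lower, without *Per3* and *Cry1*, with 2188 genes called higher and 2267 lower in all and 5 other clock genes called higher. Where changes also had to reach 1 on the log2 scale, 2 members were called higher, without *Cry2* and *Nr1d2*, with 866 genes higher and 1392 lower in all and 2 other clock genes higher and 4 lower. With each sample left out, calls ran from 2747 to 3454 higher and from 2708 to 3619 lower over all genes, and from 5 to 8 higher, the lowest without DMSO replicate 1, and from 10 to 13 lower among the other clock genes. Samples with the same number did not deviate together (correlations −0.054, 0.00644 and −0.0483 across genes). With a replicate block, 4 members were called higher and 4 lower, 7 other clock genes higher and 13 lower, and 3160 genes higher and 3278 lower over all, and *Prkaa2* lost its call (limma, adjusted p = 0.0536). Among the members, *Per2* had the lowest melatonin mean, from 3 to 13 estimated reads per library. Intervals cover counting error and the spread between these samples only.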
